A study of Mus musculus with 6 samples.

Results

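The 10 genes described here encode the inducible and constitutive HSP70 and HSP90 chaperones (Hspa1a, Hspa1b, Hspa8, Hsp90aa1, Hsp90ab1), their partners Dnajb1 and Hsph1, the mitochondrial chaperonin pair Hspd1 and Hspe1, and Hsf1, the transcription factor that drives the heat shock response. They were taken by symbol from the 24411 genes of the deposited count table, where all 10 were found, and all 10 passed the filter on low counts. RNA was sequenced from microglia of adult brain in 2 groups of 3 libraries: microglia of germline Mir137 knockout mice (gKO) and of mice wild type for Mir137 (gWT), all C57BL/6J and 8 weeks of age. No treatment is named for either group. The labels do not tie the 3 libraries of a genotype to separate animals, so the p-values speak only of variation among these libraries, part of which may be technical.

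Heat shock chaperones bind unfolded proteins and help them to refold or to be degraded. In unstressed cells HSP70 and HSP90 hold HSF1 inactive. When unfolded proteins accumulate, HSF1 is released, forms trimers and binds heat shock elements, which are inverted repeats of GAA units, in front of its target genes. Tissue dissociation and cell sorting can induce heat shock genes together with immediate-early genes in isolated brain cells, which is why the group can serve as a readout of handling. The 6 libraries include no heat-shocked or unhandled sample, so the data compare the genotypes and do not calibrate that readout.

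Sequence matches to units of the heat shock element are shown here because HSF1 drives the heat shock response. These RNA libraries do not measure binding of HSF1 to them. RefSeq promoter sequences of GRCm38.p6, of 300 bases each, were matched for 6 of the 10 genes: Dnajb1, Hspa1a, Hspa1b, Hspd1, Hspe1 and Hsph1. These sequences run past the transcription start. The paired units GAANNTTC and TTCNNGAA, each of which reads the same on both strands, were searched, and 1 match may overlap another. The capitals below mark these matches in the 120 bases that end just before the transcription start, written 5′ to 3′ on the gene's strand.
Hspa1a (chr17:34972157-34972276, minus strand): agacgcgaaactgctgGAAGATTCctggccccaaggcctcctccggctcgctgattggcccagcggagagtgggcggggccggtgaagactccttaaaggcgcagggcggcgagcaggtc
Hspa1b (chr17:34959239-34959358, minus strand): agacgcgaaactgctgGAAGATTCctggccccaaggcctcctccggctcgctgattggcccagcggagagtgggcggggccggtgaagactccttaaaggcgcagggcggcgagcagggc
Hspe1 (chr1:55088028-55088147, plus strand): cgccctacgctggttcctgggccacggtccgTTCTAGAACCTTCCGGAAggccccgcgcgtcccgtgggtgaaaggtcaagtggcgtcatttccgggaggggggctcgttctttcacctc
Hsph1 (chr5:149636316-149636435, minus strand): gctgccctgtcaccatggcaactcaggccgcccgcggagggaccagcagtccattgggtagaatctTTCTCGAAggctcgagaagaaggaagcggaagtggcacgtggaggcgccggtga
The Hspa1a and Hspa1b stretches differed at 1 of 120 bases. Hspd1 and Hspe1 lie head to head on opposite strands. RefSeq gives Hspd1 a pair of entries: one leaves 215 bases between its start and that of Hspe1, and the 18-base run in capitals for Hspe1 (chr1:55088059-55088076) is the same stretch of genome that holds its matches. The other entry, with its start at 55088243, past that of Hspe1, held 0 paired units. Of the 6 genes, 5 (all but Dnajb1) held a paired unit in at least 1 of their entries, beside 15.1% of 32851 mouse promoter entries of that length. The 3-unit form GAANNTTCNNGAA or its reverse complement TTCNNGAANNTTC was held by 3 (Hspd1, Hspe1 and Hsph1), beside 0.603% of entries. In Hsph1 it lies past the start, at bases 15 to 27 in 1 entry and 36 to 48 in the other, outside the stretch printed above. The shares count single entries, while a gene may have more than 1, so the figures are not like for like. Nor are the genes separate cases: Hspd1 and Hspe1 share 1 stretch, and the Hspa1a and Hspa1b entries differ at 4 of 300 bases. The matches are a description of these letters only.

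The libraries held totals of 14603884 to 17652976 estimated counts. Mir137 itself had 0 counts in all 6, and a microRNA precursor is poorly captured by such libraries, so the targeted gene does not check the labels. One library, gKO replicate 3, stood apart. Its score on the first principal component (39.0% of the variance) was 91.5, against -37.7 to -3.45 for the others, and its deviations fell with gene length (Spearman rho = -0.44 across genes, which are not independent replicates, against -0.06 to 0.28). Results are therefore given with and without it. All 15 microglial markers were detected and none was called, with summed levels of 49010 to 55610 CPM (counts relative to library size, scaled by the TMM method) in gKO and 48390 to 52470 CPM in gWT. Summed neutrophil markers were higher in gKO (2 of 11 tested called, summed 570 to 1066 CPM in gKO and 286 to 355 CPM in gWT), and endothelial and mural markers lower (2 of 14 called, 443 to 560 CPM in gKO and 858 to 1114 CPM in gWT). The summed levels of 4 further lists did not overlap either, beside the fibroblast markers given with Serpinh1. Border macrophage markers had 1589 to 1678 CPM in gKO and 1455 to 1511 CPM in gWT (0 of 7 called), and astrocyte markers 265 to 309 CPM in gKO and 370 to 406 CPM in gWT (0 of 8 called, all with negative values). Monocyte markers summed to 344 to 502 CPM in gKO and 534 to 756 CPM in gWT. Yet 7 of the 8 had positive log2 fold changes (median 0.86), and 2 were called higher in gKO, so the sum and the single markers differ in direction. Oligodendrocyte lineage markers had 395 to 463 CPM in gKO and 368 to 392 CPM in gWT (1 of 11 called higher). None of the markers of these lists was at 0 in all libraries. Their part in the values below was not tested.

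No heat shock gene differed detectably between gKO and gWT microglia. The edgeR quasi-likelihood test with Benjamini-Hochberg adjustment over 13403 genes called 0 of the 10 at an adjusted p under 0.05, against a background of 0.627% of all genes tested, so a count of 0 in 10 genes does not set the group apart. At an unadjusted p under 0.05, edgeR had 1 of 10 genes (Hsph1), against 10.9% of all genes, and DESeq2 called 0 of the 10 as well, against 2.77% of all genes. The log2 fold changes of gKO over gWT ran from -0.52 to 0.37, with 4 positive and 6 negative values, and the median was -0.02, beside 0.01 over all genes tested. The authors' deposited table of genes with higher expression in gKO holds 75 genes and their table of lower ones 201, and 0 of the 10 are in either. In bulk RNA, fewer cells of a type and less RNA per cell cannot be told apart.

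The intervals say more than the missing calls. The 95% interval of the fold change lay within 1.5-fold in both directions for 6 of the 10 genes (Hspa1a, Hspa8, Hsp90aa1, Hsp90ab1, Dnajb1 and Hspd1), against 24.8% of all genes, and within 2-fold for 8, against 59.0%. These are mostly abundant genes: ranked by CPM per kilobase of annotated exon, 8 of the 10 lay above 83.1% or more of 13327 genes. Without gKO replicate 3, 8 of 10 intervals lay within 1.5-fold, against 40.9% of all genes, and 0 of 10 genes were called, against 7.81%.

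**Figure D1:**
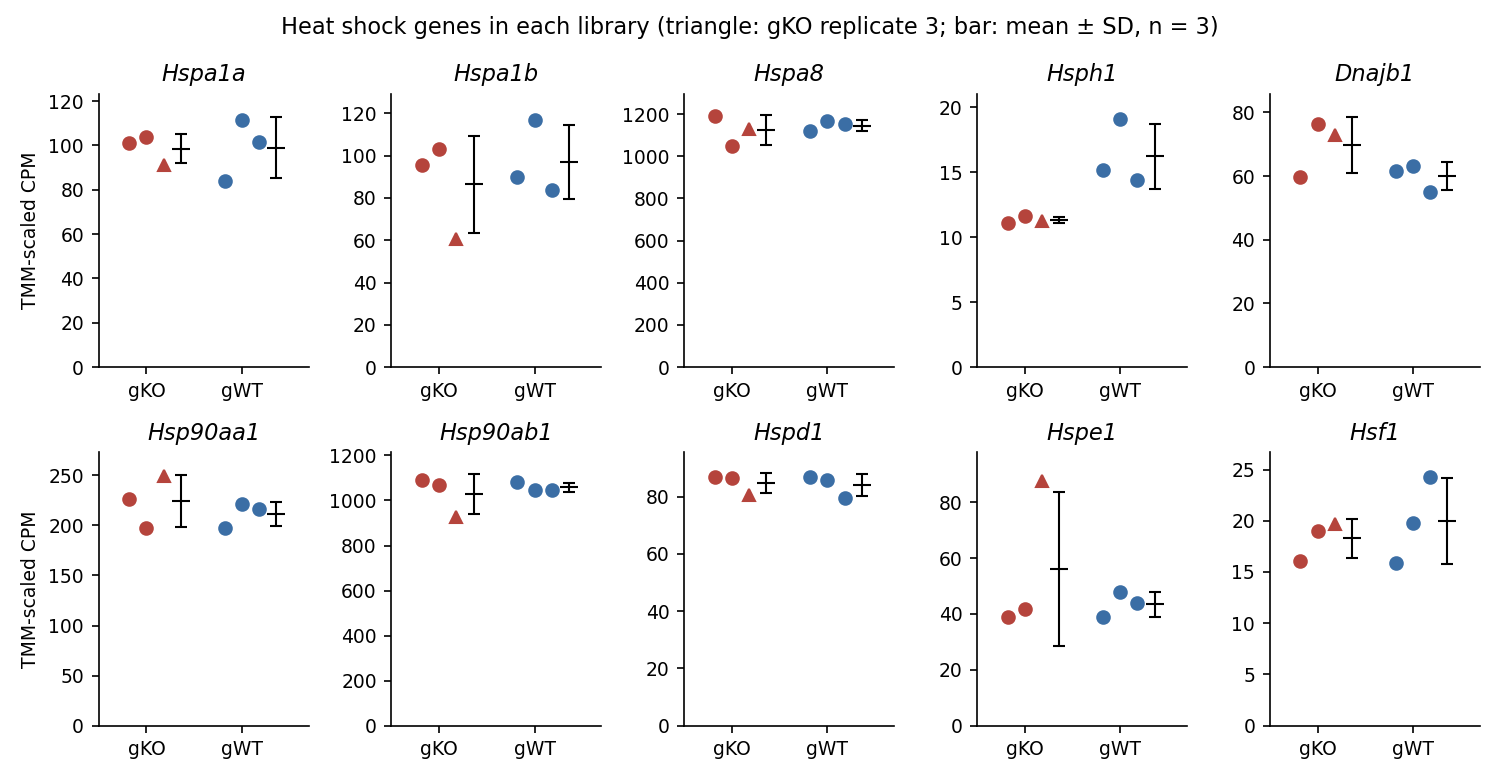
TMM-scaled CPM of each heat shock gene in each library (y axis, from 0, with its own scale per gene), gKO left in red and gWT right in blue. The triangle is gKO replicate 3, and the bar gives the mean ± SD over 3 libraries. The groups overlap for every gene except Hsph1, and the high gKO value of Hspe1 is that of replicate 3.

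Hspa1a and Hspa1b, 2 intronless copies encoding the stress-inducible HSP70, are the genes most often used to read a heat shock. Hspa1a had 100.9, 103.6 and 91.2 CPM in gKO replicates 1, 2 and 3, and 84.0, 111.4 and 101.6 CPM in gWT replicates 1, 2 and 3. The gKO values all lay inside the gWT range. Its log2 fold change was -0.01 (SE 0.15, 95% interval -0.34 to 0.33, edgeR adjusted p = 0.993), which puts the gKO level between 0.79-fold and 1.25-fold of gWT. Hspa1b had 95.5, 103.2 and 60.5 CPM in gKO, and 90.0, 117.0 and 84.0 CPM in gWT. The lowest value was that of gKO replicate 3, and the groups overlapped (log2 fold change -0.17, SE 0.22, edgeR adjusted p = 0.845).

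These 2 copies can be told apart only in part. On GRCm38 they lie side by side on the minus strand of chromosome 17, Hspa1a at 34969190 to 34972156 and Hspa1b at 34956436 to 34959238. In GENCODE M21, 47.1% of the 100-base windows of the Hspa1a transcript occur unchanged in Hspa1b, and 49.9% of those of Hspa1b occur in Hspa1a. Both genes had fractional expected counts in every library. Hspa1a took 51.4%, 50.1% and 60.2% of the pair's counts in gKO replicates 1, 2 and 3, and 48.3%, 48.8% and 54.7% in gWT. The share in gKO replicate 3 was the highest of the 6. Summed to 1 gene, the pair had 196.4, 206.8 and 151.6 CPM in gKO and 174.0, 228.4 and 185.6 CPM in gWT, with a log2 fold change of -0.08 (SE 0.17, 95% interval -0.47 to 0.30, edgeR adjusted p = 0.909). Summing removes the uncertainty of the split between the 2 copies, and the groups still overlapped. It does not address sharing beyond the pair: 56.5% of the Hspa1a windows occur in at least 1 other annotated gene.

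Hspa8 encodes HSC70, the constitutive HSP70 of unstressed cells. It had 1190, 1048 and 1130 CPM in gKO and 1118, 1168 and 1153 CPM in gWT. It differed by -0.03 on the log2 scale (SE 0.12, 95% interval -0.29 to 0.24, edgeR adjusted p = 0.953). The ratio of inducible to constitutive HSP70 within a library does not depend on scaling. Per 100 Hspa8 counts there were 16.5, 19.7 and 13.4 counts of Hspa1a and Hspa1b together in gKO, and 15.6, 19.6 and 16.1 in gWT. The gKO values spanned the whole gWT range, with replicate 3 the lowest of all libraries. Windows of the Hspa8 transcript were shared with other annotated genes for 63.4% of its length, but none of those genes is a row of the count table. The same holds for 47.5% of the windows of Hsp90aa1 and 26.9% of those of Hspd1, and nearly all of the 22.4% of Hspe1, so levels of these genes are less certain than those of Hsp90ab1, Dnajb1, Hsph1 and Hsf1, where 0 windows were shared.

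Dnajb1, an HSP40 that delivers clients to HSP70 and is itself an HSF1 target, had 59.7, 76.3 and 73.0 CPM in gKO and 61.6, 63.3 and 55.0 CPM in gWT. gKO replicates 2 and 3 lay above the gWT values and replicate 1 within them. Its log2 fold change was 0.22 (SE 0.15, 95% interval -0.13 to 0.56, edgeR adjusted p = 0.675), and 0.17 (SE 0.12) without gKO replicate 3.

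Hsph1 was the only gene of the 10 whose groups did not overlap. It lies on chromosome 5 (149614287 to 149636376, minus strand) and encodes HSP110, a nucleotide exchange factor that resets HSP70 and is strongly HSF1-inducible. It had 11.1, 11.6 and 11.2 CPM in gKO, and 15.2, 19.1 and 14.4 CPM in gWT. All gKO values lay below all gWT values, and the gKO libraries differed little among themselves. Groups that do not overlap occurred in 21.3% of all genes tested, 11.3% with gKO lower, so 1 gene in 10 is near the background. The log2 fold change was -0.52 (SE 0.21), which corresponds to 0.697-fold with a 95% interval of 0.499-fold to 0.974-fold. The unadjusted p was 0.0376 and the edgeR adjusted p was 0.422, so Hsph1 was not called. Without gKO replicate 3 the value was -0.53 (SE 0.22, edgeR adjusted p = 0.176). The gene rests on 159 to 194 counts in gKO libraries and 246 to 334 counts in gWT libraries, the fewest of the 10 genes. Hsph1 carries a paired unit in its promoter stretch, and the promoter entries of Hspa1a, Hspa1b, Hspd1 and Hspe1, whose groups overlapped, hold units too. Whether these units bear on the values was not tested.

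Hsp90aa1, the stress-inducible HSP90, had 225.9, 197.4 and 249.5 CPM in gKO and 197.8, 220.9 and 216.1 CPM in gWT. The lowest gKO library was level with the lowest gWT library, and the log2 fold change was 0.08 (SE 0.13, 95% interval -0.22 to 0.39, edgeR adjusted p = 0.877). Hsp90ab1, the constitutive HSP90 and the highest of the 10 in CPM per kilobase of annotated exon, had 1089, 1067 and 925 CPM in gKO. In gWT it had 1082, 1046 and 1047 CPM. Only gKO replicate 3 lay below the gWT values. Its log2 fold change was -0.04 (SE 0.12, 95% interval -0.32 to 0.23, edgeR adjusted p = 0.933). Per 100 Hsp90ab1 counts there were 20.8, 18.5 and 27.0 Hsp90aa1 counts in gKO, and 18.3, 21.1 and 20.6 in gWT. gKO replicate 3 had the highest ratio of inducible to constitutive HSP90 but the lowest ratio of inducible to constitutive HSP70, so the HSP70 and HSP90 ratios pointed in opposite directions in that library.

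Hspd1 (HSP60) and Hspe1 (HSP10) form the chaperonin that folds proteins in the mitochondrial matrix, and they are read from a shared promoter on chromosome 1, Hspd1 at 55077835 to 55088243 on the minus strand and Hspe1 at 55088132 to 55091307 on the plus strand. Hspd1 had 86.9, 86.3 and 80.7 CPM in gKO and 86.7, 85.8 and 79.7 CPM in gWT. The groups were almost the same, with a log2 fold change of 0.01 (SE 0.12, 95% interval -0.27 to 0.29, edgeR adjusted p = 0.988). Hspe1 had 38.9, 41.7 and 87.7 CPM in gKO and 38.7, 47.7 and 43.9 CPM in gWT. gKO replicates 1 and 2 lay below the gWT mean, and replicate 3 alone was high. Its log2 fold change was 0.37 (SE 0.31, edgeR adjusted p = 0.738) with all libraries and -0.12 (SE 0.13, edgeR adjusted p = 0.665) without gKO replicate 3. Per 100 Hspd1 counts there were 44.8, 48.3 and 108.8 Hspe1 counts in gKO, and 44.6, 55.6 and 55.1 in gWT.

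Hspe1 is the shortest of the 10 genes, at 1474 bases of annotated exon, and gKO replicate 3 read short genes higher. Hspe1 lay 1.12 higher in that library than the mean of gKO replicates 1 and 2 (log2 CPM). In the shortest of 10 length classes of tested genes (1254 genes of 174 to 1802 bases) the median of the same difference was 0.82, and 28.9% of them were at or above the value of Hspe1. Over all length classes that share was 7.31%. Hspa1b, at -0.72, was the member that lay furthest below its fellow gKO libraries, and its length class had a median of 0.24. With each library's length trend removed, Hspe1 had a log2 fold change of 0.22 (edgeR adjusted p = 0.591), beside -0.12 without gKO replicate 3. The part of length in the Hspe1 value was not tested.

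**Figure D2:**
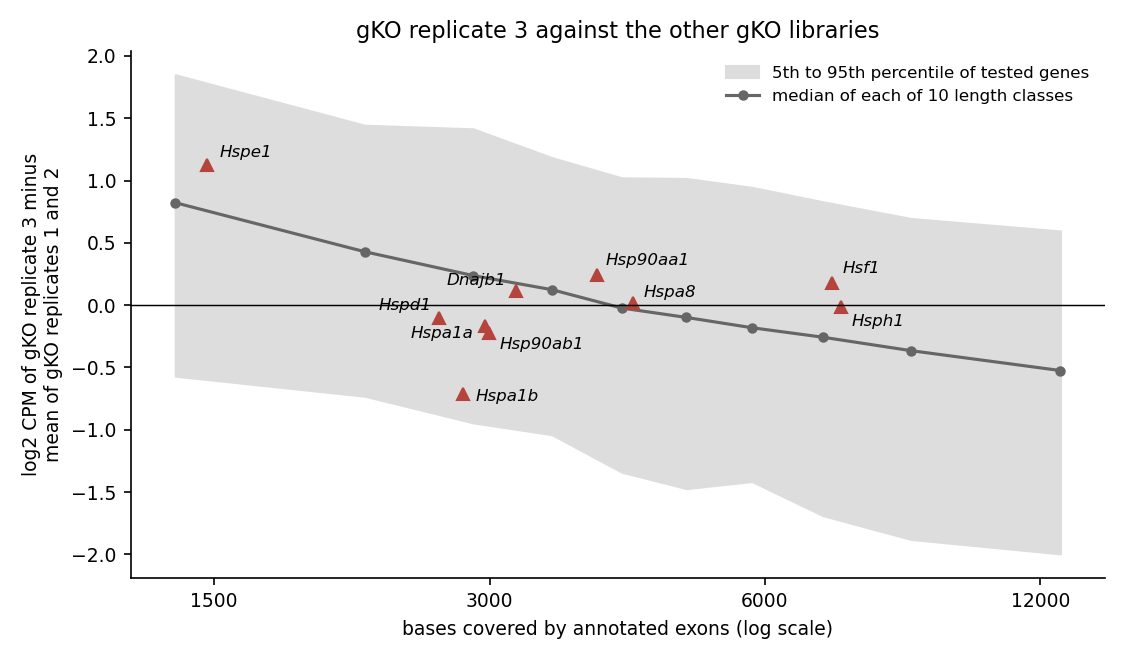
Difference between gKO replicate 3 and the mean of gKO replicates 1 and 2 in log2 CPM (y axis) against the bases covered by annotated exons (x axis, log scale). The line joins the medians of 10 length classes of the tested genes, the band spans their 5th to 95th percentiles, and triangles are the 10 heat shock genes. The median falls from 0.82 to -0.52 with length, and Hspe1, at 1.12, lies inside the band for short genes.

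Hsf1, the factor upstream of the group, had 16.1, 19.0 and 19.7 CPM in gKO and 15.9, 19.8 and 24.3 CPM in gWT. Every gKO value lay within the gWT range (log2 fold change -0.13, SE 0.22, 95% interval -0.63 to 0.37, edgeR adjusted p = 0.885). HSF1 is controlled mainly after translation, so its messenger level does not measure its activity.

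By CPM per kilobase of annotated exon, the order of the levels was the same for its upper part in both groups. In CPM per kilobase of exon, Hsp90ab1 had 342.4 in gKO and 353.0 in gWT, and Hspa8 had 261.0 in gKO and 266.5 in gWT, with no overlap between the ranges of the 2 genes. Hsp90aa1 came next by its mean, at 57.1 in gKO and 53.8 in gWT, though in gKO its range overlapped that of Hspe1. Hspa1a, Hspa1b, Hspd1 and Hspe1 lay between 30.8 and 38.1 in gKO and between 29.5 and 34.6 in gWT, and their ranges over libraries overlapped, so they cannot be ordered. Dnajb1 had 21.7 in gKO and 18.7 in gWT. Its range lay below those of these 4 genes in gWT, but in gKO (18.6 to 23.8) it overlapped that of Hspa1b (21.6 to 36.8). Hsf1 (2.57 in gKO and 2.82 in gWT) and Hsph1 (1.56 in gKO and 2.23 in gWT) were the lowest. This order depends on the length used. By mean CPM alone Hspa8 was above Hsp90ab1, at 1123 against 1027 in gKO and 1146 against 1059 in gWT. Annotated exon covers 4301 bases for Hspa8 and 1474 for Hspe1, but their longest protein-coding transcripts have 2394 and 774 bases. An order by transcript length was not worked out. Together the 10 genes took 0.259% to 0.288% of the counts in gKO libraries and 0.285% to 0.293% in gWT libraries.

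By the root mean square difference of centred log2 CPM over the 6 libraries, the genes outside the group with profiles nearest to that of Hspa1a were Cables1 (0.03), Cebpa (0.05) and Parp8 (0.05), among 12151 genes. Those nearest to Hspa8 were Nucb1, Qars and Ppp2r4 (0.03 each). Within the group, Hspd1 and Hsp90ab1 were nearest to each other (0.06), while the nearest profile to Hspe1, that of Hsp90aa1, differed by 0.32, and Hspa1b was nearer to Hsp90ab1 (0.24) than to its own copy Hspa1a.

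The immediate-early genes, which handling can induce alongside heat shock genes, were higher in gKO in the same libraries. Of 32 tested, edgeR called 12 higher in gKO and 0 lower, against 0.395% and 0.231% of all genes. The median change was 0.81 on the log2 scale. The list was chosen with earlier results of these data known, so its counts describe these genes and are not an independent test. The nuclear receptor gene Nr4a1 and the stress factor gene Atf3 are named as those with the smallest p. Nr4a1 had 341.6, 306.7 and 309.3 CPM in gKO and 100.1, 106.1 and 96.0 CPM in gWT. Atf3 had 619, 635 and 670 CPM in gKO and 247, 241 and 229 CPM in gWT. The groups were far apart for both, whereas those of Hspa1a and Hspa1b overlapped. Without gKO replicate 3, 26 of the 32 were called higher, against 3.99% of all genes, and the median was 0.71. Without any 1 gWT library edgeR called 0 genes in the whole table, and the adjusted p was 0.0711 to 0.0945 for Nr4a1 and 0.0956 to 0.120 for Atf3. The lower ends of the 95% intervals ran from 0.53 to 1.38 (log2) over the 12 called early genes and from -3.14 to 1.38 over all 32, and the upper ends for 9 of the 10 heat shock genes ran from -0.04 to 0.56, that of Hspe1 being 1.07. The intervals of many early genes, called ones among them, therefore overlapped those of some heat shock genes. The called genes Klf4 and Jund, with lower ends of 0.53 and 0.55, overlapped Dnajb1, with an upper end of 0.56. Nr4a1, Atf3 and Fosb, with lower ends of 1.16 to 1.38, lay above all 10 heat shock intervals.

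**Figure D3:**
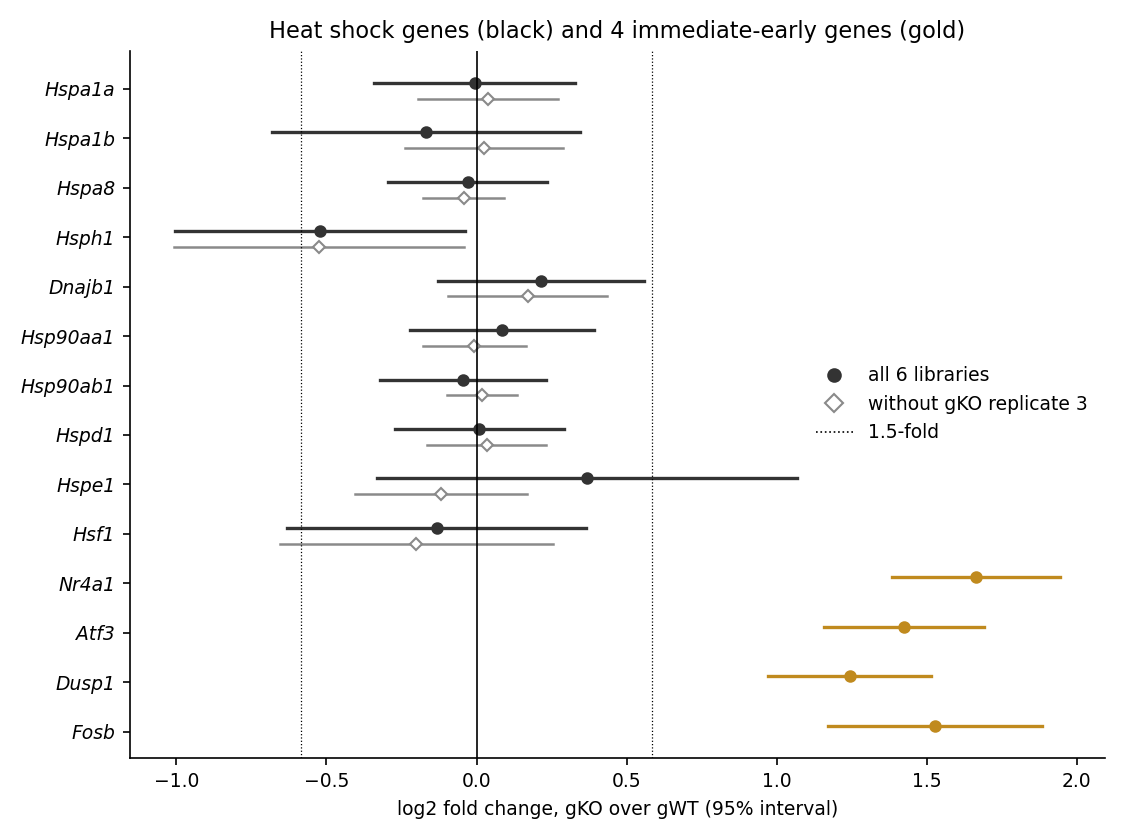
Log2 fold change of gKO over gWT with its 95% interval (x axis) for each heat shock gene, from all 6 libraries (filled circles) and without gKO replicate 3 (open diamonds), and for the 4 immediate-early genes with the smallest p (gold, all libraries). Dotted lines mark 1.5-fold. The heat shock values lie between -0.52 and 0.37, and the 4 early genes between 1.24 and 1.66.

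Of 6 genes for the other heat shock factors and the HSF1-binding protein, 4 were tested. Of these, edgeR called 0, against 0.627% of all genes, and 2 had an unadjusted p under 0.05, against 10.9%. Hsf2, whose product can form mixed trimers with HSF1, had 18.8, 16.3 and 24.6 CPM in gKO and 11.8, 11.5 and 9.55 CPM in gWT. All gKO values lay above all gWT values, and the difference of 0.86 on the log2 scale (SE 0.23) was not called (edgeR adjusted p = 0.198). Without gKO replicate 3 it was 0.67 (edgeR adjusted p = 0.0820). Hsf4, known for its role in the lens, had 0 counts in each gKO library and 12, 16 and 12 counts in gWT, at least 11.95-fold lower in gKO when 3 counts are set as the limit over the group. It is in the authors' deposited table of lower genes with a log2 fold change of -6.01 and an adjusted p of 0.0447, while edgeR gave an adjusted p of 0.257. Counts this low bear on few molecules, and every gKO library had fewer genes above 0 counts than any gWT library. Whether that bears on the Hsf4 value was not tested.

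Of 28 other genes reported as HSF1-induced, edgeR called 0 higher and 1 lower in gKO, against 0.395% and 0.231% of all genes. Their median was 0.08 on the log2 scale. Without gKO replicate 3, edgeR called 1 higher and 2 lower (Serpinh1 and Hspb1), against 3.99% and 3.82% of all genes, and the median was -0.09. The gene called with all libraries was Serpinh1, which encodes HSP47, a chaperone for collagen in the endoplasmic reticulum. It had 24.96, 23.3 and 24.7 CPM in gKO and 72.2, 56.3 and 52.8 CPM in gWT (SE 0.17 around a log2 fold change of -1.31, edgeR adjusted p = 0.0221). The groups were well apart. Without gKO replicate 3 it was called too, and without any other 1 library its edgeR adjusted p was 0.0815 to 0.200. Markers of fibroblasts, which make collagen, were also lower: 3 of 8 tested were called, none was at 0, and their sum was 177 to 205 CPM in gKO and 366 to 514 CPM in gWT. Their part in the Serpinh1 value was not tested.

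Hspb1, the small heat shock protein HSP27, had 8.88, 13.8 and 26.7 CPM in gKO and 19.3, 22.4 and 19.9 CPM in gWT. gKO replicate 3 was the highest of the 6 and the other gKO libraries the lowest. Hspb1 was not called with all libraries (-0.32, edgeR adjusted p = 0.815) and was called as lower without gKO replicate 3 (-0.87, edgeR adjusted p = 0.0322). Hspb1 was singled out after its values were seen. Among 7 tested small heat shock proteins, edgeR called 0, with 1 at an unadjusted p under 0.05 (Hspb8, -1.03, edgeR adjusted p = 0.354). Over all genes these shares were 0.627% and 10.9%. Their median was -0.32 with all libraries and -0.79 without gKO replicate 3.

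Among 23 HSP90 paralogs and co-chaperones, edgeR called 1 higher and 0 lower in gKO, against 0.395% and 0.231% of all genes. Of the 23 values 15 were positive, with a median of 0.07, or -0.05 without gKO replicate 3. The gene called was Fkbp5, an HSP90-bound immunophilin known mainly as a glucocorticoid-induced gene. It had 433.7, 434.0 and 360.1 CPM in gKO and 208.5, 207.4 and 205.2 CPM in gWT (log2 fold change 0.98, SE 0.13, edgeR adjusted p = 0.0221). It was called without gKO replicate 3 too, and its edgeR adjusted p was 0.0815 to 0.234 without any other 1 library.

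In the remaining chaperone families edgeR called 0 genes with all libraries, against 0.627% of all genes. An unadjusted p under 0.05 was found in 10.9% of all genes. The 11 other HSP70 and HSP110 genes had a median of -0.03 with 2 at an unadjusted p under 0.05 (Hspa12b, -1.06, and Hspa12a, -0.98). The 41 J-domain proteins had a median near 0 (-0.0035) with 3 such genes, the smallest p being those of Dnajc14 (-0.41) and Dnaja3 (-0.38). The 13 BAG proteins and exchange factors had 1 (Grpel2, 0.75, a mitochondrial exchange factor), with a median of 0.03. The 16 mitochondrial chaperones and proteases had 2 (Grpel2 and Dnaja3), with a median of 0.08, and the 14 TRiC and prefoldin subunits, which fold actin and tubulin, had 1 (Tcp1, 0.34), with a median of 0.12. The 20 chaperones of the endoplasmic reticulum had 1 (Pdia4, -0.36), with a median of -0.01. DESeq2 called Grpel2 (adjusted p = 0.0490), which edgeR did not (adjusted p = 0.184). When gKO replicate 3 was left out, edgeR called 3 genes of these families, against 7.81% of all genes tested. They were 1 of 41 J-domain proteins and 2 of 20 chaperones of the endoplasmic reticulum, so the counts do not set these families apart. Dnajc5, a J-domain protein of synaptic vesicles, was higher in gKO (0.35, edgeR adjusted p = 0.016). Pdia4, a disulfide isomerase (-0.42, edgeR adjusted p = 0.0063), and Xbp1, a transcription factor of the unfolded protein response (-0.34, edgeR adjusted p = 0.0312), were lower. The medians without that library were -0.13 for the HSP70 and HSP110 genes, -0.04 for the J-domain proteins, -0.02 for the exchange factors, 0.05 for the mitochondrial list, -0.03 for TRiC and prefoldin and -0.15 for the endoplasmic reticulum, beside -0.02 over all genes tested. Lists share genes, and Grpel2, Dnaja3 and Tcp1 each stand in more than 1 of them.

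**Figure D4:**
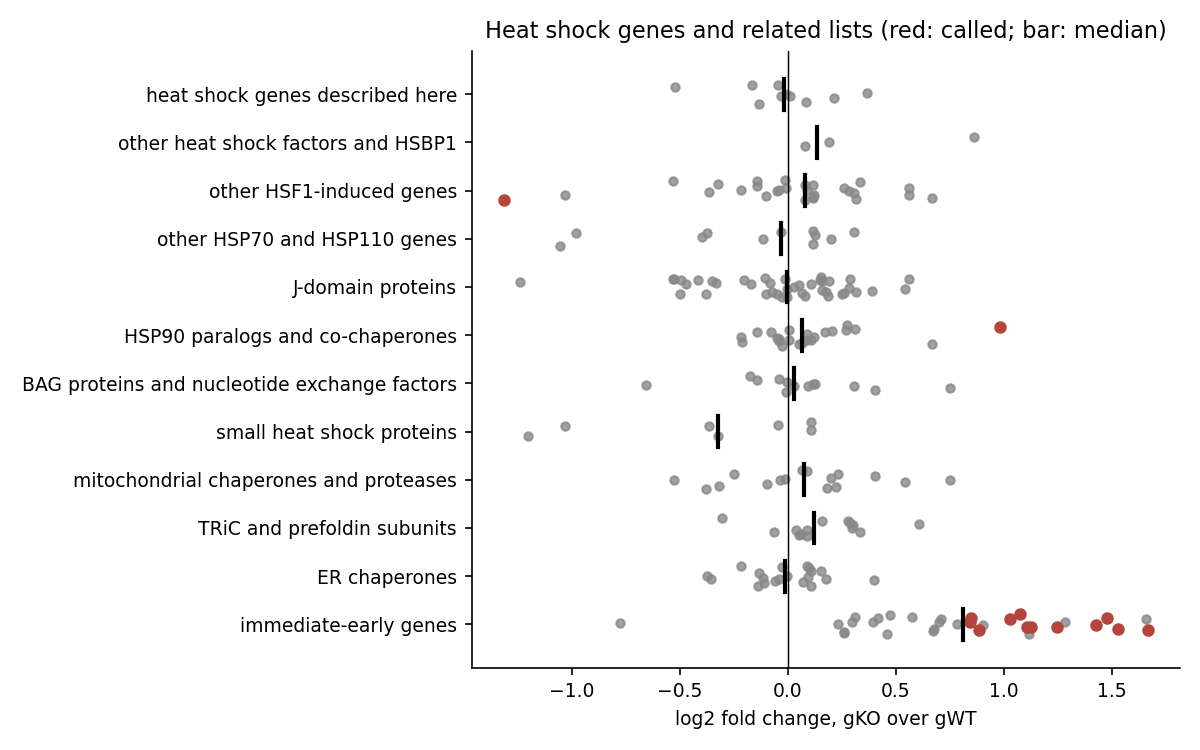
Log2 fold change of gKO over gWT (x axis) of each tested gene in the heat shock group, the related chaperone lists and the immediate-early genes. Points are genes, red where edgeR called them, and black bars are list medians; Hsf4, at -6.67, lies outside the axis. The chaperone lists hold 1 red point each at most with all libraries, and the immediate-early list holds 12.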

How the data were processed

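RNA-seq of brain microglia was analysed for 3 gKO and 3 gWT libraries. The authors deposited expected counts per gene symbol, not normalized. STAR 2.7.9a, RSEM and DESeq2 and the builds GRCm38 and mm10 are named, per the submitters' processing notes. No annotation and no strand setting is given in the sources used here. The authors' deposited tables of changed genes give, per the file headers, the mean of normalized counts (a signal), the log2 fold change (KO over WT), its standard error and test statistic (scores), and p-values before and after adjustment.

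Columns were mapped to samples by name. After rounding to whole numbers, expected counts were tested with edgeR 4.0.16 (R 4.3.3): TMM scaling, the default filter on low counts, robust quasi-likelihood, genotype only, Benjamini-Hochberg over 13403 genes, call at an adjusted p under 0.05. SE was taken as the size of the log2 fold change over the root of F, and 95% intervals use the t quantile. CPM values are TMM-scaled. Gene lengths are exon unions of GENCODE M21 (GRCm38), to which 23368 symbols were matched by name and 677 by synonym, with 366 unmatched. The search for shared windows used transcripts of GENCODE M21. The test was checked on simulated data.

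The named genes are the 10 members, up to 4 called members of each list (otherwise the 2 with the smallest p), and the nearest profiles. The members and lists were chosen with earlier results of these data known. No 2 replicates agreed within sampling noise (chi-square over its degrees of freedom at least 6.49). Alternatives were RLE and upper-quartile scaling, other filters, DESeq2 1.42.0, limma-voom (limma 3.58.1) with and without sample weights, a replicate block, leaving out each library, and Hspa1a and Hspa1b summed. Removing the length trend was added after the data were examined. Intervals cover the spread between libraries. One gene of the lists is not reported here.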

Additional observations from a re-analysis of the deposited data

How the results depend on the processing

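No heat shock gene was called under any of the 16 alternatives, and the lowest adjusted p was that of Hsph1 without gKO replicate 3 (0.176). Hsph1 stayed negative under all of them and Dnajb1 positive, while each of the other members changed sign under at least 1. No reversed value was larger in size than 0.118. Hspe1 turned from 0.37 to -0.118 and Hspa1b from -0.17 to 0.0252 without gKO replicate 3. Hsf1 turned from -0.13 to 0.0289 without gWT replicate 3. The sign of Hspd1 turned under upper-quartile scaling (-0.0285), without a filter (-0.0012) and with the length trend removed (-0.0043). That of Hspa1a turned under limma-voom (0.0016), limma-voom with sample weights (0.0096) and the replicate block (0.0010). With sample weights Hsp90ab1 (0.0135) and Hspe1 (-0.0484) turned as well. Leaving out 1 library at a time gave log2 fold changes of -0.114 to 0.0835 for Hspa1a, -0.317 to 0.0252 for Hspa1b, -0.0077 to 0.165 for Hsp90aa1, -0.0900 to 0.0169 for Hsp90ab1, -0.0763 to 0.0150 for Hspa8, -0.0299 to 0.0340 for Hspd1, -0.118 to 0.573 for Hspe1 and -0.275 to 0.0289 for Hsf1. The member median ran from -0.04 to 0.0046.

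Counts over all genes moved more: 53 higher and 31 lower by default, 179 and 235 by DESeq2, 261 and 152 by limma-voom with sample weights, 99 and 79 with the length trend removed, 11 and 7 with the replicate block, 47 lower without a filter, and, leaving out 1 library, 0 to 551 higher and 0 to 528 lower. The cause was not tested. Serpinh1 and Fkbp5 lost their calls under the replicate block (adjusted p = 0.0603 and 0.0734) and without any 1 library other than gKO replicate 3, while their log2 fold changes stayed near the values with all libraries: -1.30 and 0.98 under the block, and -1.41 to -1.17 and 0.94 to 1.06 leaving out 1 library. Same-numbered libraries did not deviate together (correlations 0.05, -0.05 and 0.02, with 2 of 6 libraries nearest to their own number), so the numbers were not taken as pairs. Hsph1 and Hsf1 had the fewest counts, but their SEs (0.21 and 0.22) were no larger than those of Hspa1b (0.22) and Hspe1 (0.31), which have more, so no limit by depth is stated.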
